A study of Mus musculus with 6 samples.

Results

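Fc gamma receptors, the adaptors that signal for them and the kinase Syk were examined in bone marrow-derived macrophages labelled as control or as knockout of Dhps, the gene of deoxyhypusine synthase. The family was taken by gene symbol as Fcgr1, Fcgr2b, Fcgr3, Fcgr4, Fcer1g, Tyrobp and Syk. All 7 genes had a row in the deposited table of 10551 genes. RNA sequencing was done on 6 libraries from C57BL/6J mice, 3 labelled control and 3 labelled as a knockout of Dhps specific to macrophages, written Dhps_delta_Myel. The labels give no age, stimulus, growth factor or Cre driver, no further genotype of the controls, and no statement that replicates are different mice or dishes. A p-value here thus weighs a difference against the scatter of these 6 libraries, and that scatter may be technical.

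Fc gamma receptors bind the constant part of IgG and so let a macrophage take up antibody-coated particles. The activating receptors Fcgr1, Fcgr3 and Fcgr4 carry no signalling motif of their own in mouse and depend on the common gamma chain encoded by Fcer1g, whose cytoplasmic tail holds an immunoreceptor tyrosine-based activation motif (ITAM). Src family kinases phosphorylate the paired tyrosines of that motif, and Syk docks on them and passes the signal on. Tyrobp, also called DAP12, is a second ITAM adaptor that serves receptors such as Trem2. Fcgr2b is the inhibitory receptor: its tail holds an inhibitory motif (ITIM) that recruits the phosphatase SHIP1, the product of Inpp5d.

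The motifs of the adaptors and of the inhibitory receptor are shown first, as the balance between these genes is compared further below. The ITIM was sought in the sequence of Fcgr2b only. The coding sequences were read from GENCODE M21 transcripts (mm10). Of the 7 coding sequences, 2 held a pair of tyrosine codons, each followed after 2 further codons by a leucine or isoleucine codon, with 6 to 8 codons between the first such group and the second. Capitals mark these tyrosine and leucine codons in the adaptors, and in Fcgr2b the isoleucine, tyrosine and leucine codons of the ITIM.
Fcer1g ITAM: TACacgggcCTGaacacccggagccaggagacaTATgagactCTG
Tyrobp ITAM: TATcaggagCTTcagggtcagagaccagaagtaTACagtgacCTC
Fcgr2b ITIM: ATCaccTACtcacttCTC
Both adaptors have 7 codons between the groups, and each ITAM stretch runs across an exon junction. That of Fcer1g lies on the minus strand at chr1:171229889-171230072, that of Tyrobp on the plus strand at chr7:30415670-30417382 and the ITIM of Fcgr2b on the minus strand at chr1:170961071-170961088.

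In mm10 coordinates of the deposited table, 4 of the genes lie near each other on chromosome 1: Fcgr2b (170960559 to 170976071, 8 exons, minus strand), Fcgr4 (171018926 to 171029761, 5 exons, plus strand), Fcgr3 (171051169 to 171059403, 5 exons, minus strand) and Fcer1g (171229572 to 171234349, 5 exons, minus strand). Fcgr1 lies on chromosome 3 (96282909 to 96293969, 6 exons, minus strand), Tyrobp on chromosome 7 (30413788 to 30417579, 5 exons, plus strand) and Syk on chromosome 13 (52583437 to 52648792, 15 exons, plus strand). No exon of another annotated gene overlaps the exons of any of the 7.

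Fcgr2b and Fcgr3 share part of their sequence, which limits how well their reads can be told apart. The longest run that both coding sequences hold without a mismatch is 129 bases long, and it codes for part of the antibody-binding region outside the cell.
Fcgr2b and Fcgr3 shared run: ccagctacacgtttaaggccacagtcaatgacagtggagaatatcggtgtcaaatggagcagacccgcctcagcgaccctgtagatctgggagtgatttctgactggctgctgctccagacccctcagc
The run spans an exon junction in both genes, at chr1:170966674-170968081 in Fcgr2b and chr1:171054167-171057792 in Fcgr3. Of all windows of 50 bases, 166 were identical between the pair, or 10.9% of the 1529 windows of the Fcgr2b transcript and 12.8% of the 1298 windows of the Fcgr3 transcript. With windows of 110 bases over the coding sequences, close to the insert size that the labels give, 24 were shared, 2.63% of those of Fcgr2b and 3.45% of those of Fcgr3. No window of 50 bases of Fcgr1, Fcgr4, Fcer1g, Tyrobp or Syk occurred in a transcript of another gene. The sources used here do not give how reads with more than 1 match were counted, so the split of reads between Fcgr2b and Fcgr3 is uncertain to that extent.

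The libraries held between 11648710 and 16224818 counts, and levels are given as CPM, the counts of a gene per 1000000 counts of the library after scaling by the trimmed mean of M values. The Pearson r of log2 CPM across genes, which are not independent replicates, was 0.987 to 0.991 for libraries of the same group and 0.986 to 0.990 for libraries of different groups. Dhps itself was at 24.1, 20.9 and 23.4 CPM in control libraries 1, 2 and 3 and at 13.2, 13.6 and 18.3 CPM in knockout libraries 1, 2 and 3. All 3 knockout libraries lay below the controls, but the log2 difference of -0.59 (SE 0.14) did not pass the test (edgeR adjusted p = 0.214). All 14 listed macrophage markers were measured, among them Adgre1, Csf1r and Cd68, and none passed the test (median log2 fold change -0.01). Of 18 genes listed as neutrophil markers 14 were measured and 5 rose in the knockout libraries, Ngp, Ltf, Lcn2, S100a8 and S100a9. Of these 14, 13 had a log2 fold change above 0. At an unadjusted p under 0.05, 10 were higher and 0 lower, beside 3.84% higher and 2.64% lower of all genes. Lcn2, S100a8 and S100a9 can also be made by macrophages, and whether other cells were present was not tested. The summed level of these 14 markers was 543 to 598 CPM in control and 824 to 1067 CPM in knockout libraries, while the markers Ly6g, Cxcr2, Retnlg and Ctsg had no row in the table.

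The family was strongly expressed in both groups. Each member was counted with 2052 to 26226 reads per library, so that counting error was at most 2.21% of a value. Per length, as normalized CPM per kb of exon averaged over the 6 libraries, the order was Tyrobp (1638), Fcgr3 (1138), Fcgr4 (329), Fcer1g (259.0), Fcgr2b (259.0), Syk (251) and Fcgr1 (77.3). By this per-length level Tyrobp ranked 29th and Fcgr3 46th among the 10551 genes, and Fcgr1 ranked 861st. Tyrobp lay above Fcgr3, Fcgr3 above Fcgr4, Fcgr4 above Fcer1g and Syk above Fcgr1 in 6 of 6 libraries. Fcer1g, Fcgr2b and Syk did not differ beyond their spread: Fcer1g lay above Fcgr2b in 2 of 6 libraries and Fcgr2b above Syk in 4 of 6.

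**Figure D1:**
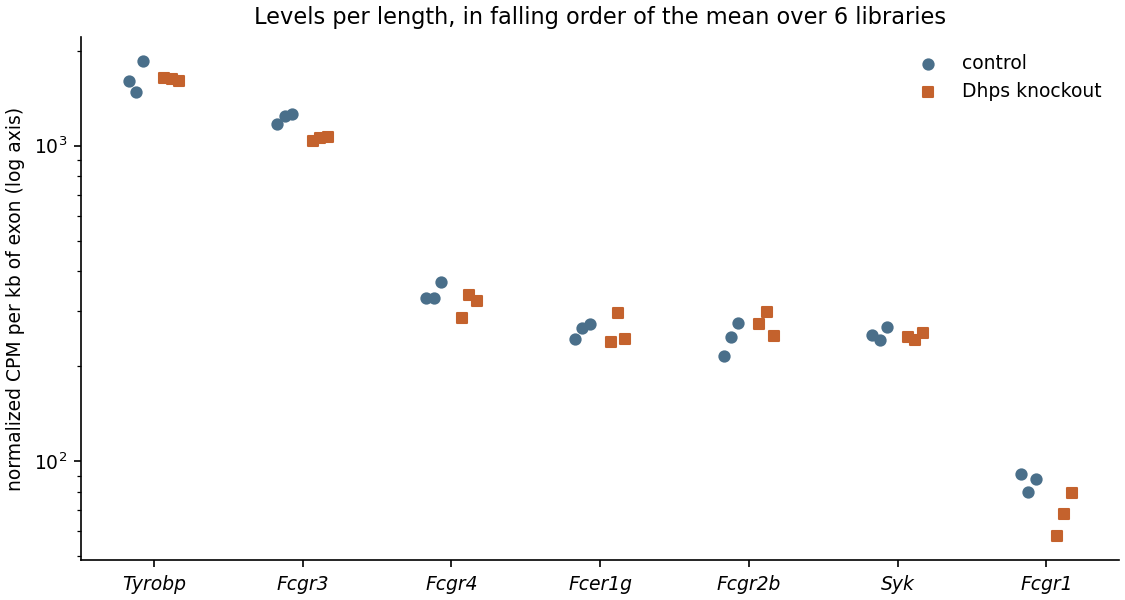
Normalized CPM per kb of exon (log axis) for each of the 7 genes in each library, circles for control and squares for Dhps knockout. Tyrobp and Fcgr3 stand above the rest with means of 1638 and 1138, Fcer1g, Fcgr2b and Syk lie together between 251 and 259.0, and Fcgr1 is lowest at 77.3.

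The question of the comparison, after the series' title, is what the loss of the enzyme does to the inflammatory phenotype of macrophages, here for their antibody receptors. None of the 7 genes passed the test of knockout against control in edgeR's quasi-likelihood test, where 0.104% of all 10551 genes were called at an adjusted p under 0.05 (0.0948% higher and 0.00948% lower in the knockout libraries). The smallest adjusted p of the family was 0.503. At an unadjusted p under 0.05 there were 2 members, both lower in the knockout libraries, against 2.64% of all genes that were lower, 3.84% that were higher and 6.48% in either direction. DESeq2 and limma-voom called 0 of the 7. In bulk RNA, fewer cells of a type and less RNA per cell cannot be told apart, and the part that the higher neutrophil transcripts had in any value of this family was not tested.

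Among the activating receptors, Fcgr1 and Fcgr3 had their control and knockout libraries apart. Fcgr1, the high-affinity receptor for IgG, was at 236, 206 and 228 CPM in control libraries 1, 2 and 3 and at 149, 177 and 205 CPM in knockout libraries 1, 2 and 3. The 3 knockout libraries all lay below the 3 controls, but control library 2 and knockout library 3 were only 1.22 CPM apart, or 0.592% of the level, less than the counting error of 1.73% of the most deeply counted library. The group means were 223 ± 15.3 and 177 ± 27.8 CPM (SD, n = 3 each). The log2 fold change, knockout relative to control, was -0.33 with an SE of 0.11 (95% interval -0.56 to -0.11, edgeR adjusted p = 0.503). Knockout library 1 had the lowest level, and without it the log2 fold change was -0.22 (edgeR adjusted p = 0.720). Without knockout library 3, the highest of its group, it was -0.45 (edgeR adjusted p = 0.279).

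Fcgr3, the low-affinity activating receptor, was the most abundant of the 4 receptors. It was at 1586, 1686 and 1699 CPM in control libraries and at 1397, 1432 and 1440 CPM in knockout libraries. The gap between the groups was 146 CPM, wider than the spread within either group. The means were 1657 ± 62.2 and 1423 ± 22.8 CPM (SD, n = 3 each). On the log2 scale Fcgr3 differed by -0.22 with an SE of 0.08 (95% interval -0.39 to -0.05, edgeR adjusted p = 0.627). The fold was 0.859 with an interval from 0.762 to 0.968. With the counts of Fcgr2b and Fcgr3 summed as 1 gene, a value that does not depend on how shared reads were split, the log2 fold change was -0.14 (SE 0.08, edgeR adjusted p = 0.853).

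Fcgr4, a receptor of intermediate affinity for IgG2a and IgG2b, was at 412, 411 and 462 CPM in control libraries and at 357, 419 and 403 CPM in knockout libraries. The groups overlapped, since knockout library 2 lay above control libraries 1 and 2. The log2 fold change was -0.12 (SE 0.09, 95% interval -0.32 to 0.07, edgeR adjusted p = 0.893), and it was -0.05 without knockout library 1 and -0.07 without control library 3. In all, 2 of the 7 genes had every knockout library below every control library and 0 had every knockout library above, beside 5.45% and 5.73% of all genes, or 11.2% in either direction.

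Fcgr2b, the inhibitory receptor, was the member with the highest fold change and the only one above 0. It was at 332, 383 and 424 CPM in control libraries and at 422, 458 and 384 CPM in knockout libraries. The groups overlapped, with control library 3 above knockout libraries 1 and 3. The means were 380 ± 46.0 and 421 ± 36.7 CPM (SD, n = 3 each), and the log2 difference was 0.15 with an SE of 0.10 (95% interval -0.06 to 0.36, edgeR adjusted p = 0.876). The value depended on single libraries, being 0.06 without control library 1, 0.09 without knockout library 2 and 0.24 without control library 3. Fcgr2b is also the Fc gamma receptor of B cells, of whose 11 listed markers 3 were measured, with a summed level of 15.4 to 21.5 CPM in control and 21.0 to 25.8 CPM in knockout libraries. Cd79a and Ms4a1 had no row, and the part of these cells in the value was not tested.

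**Figure D2:**
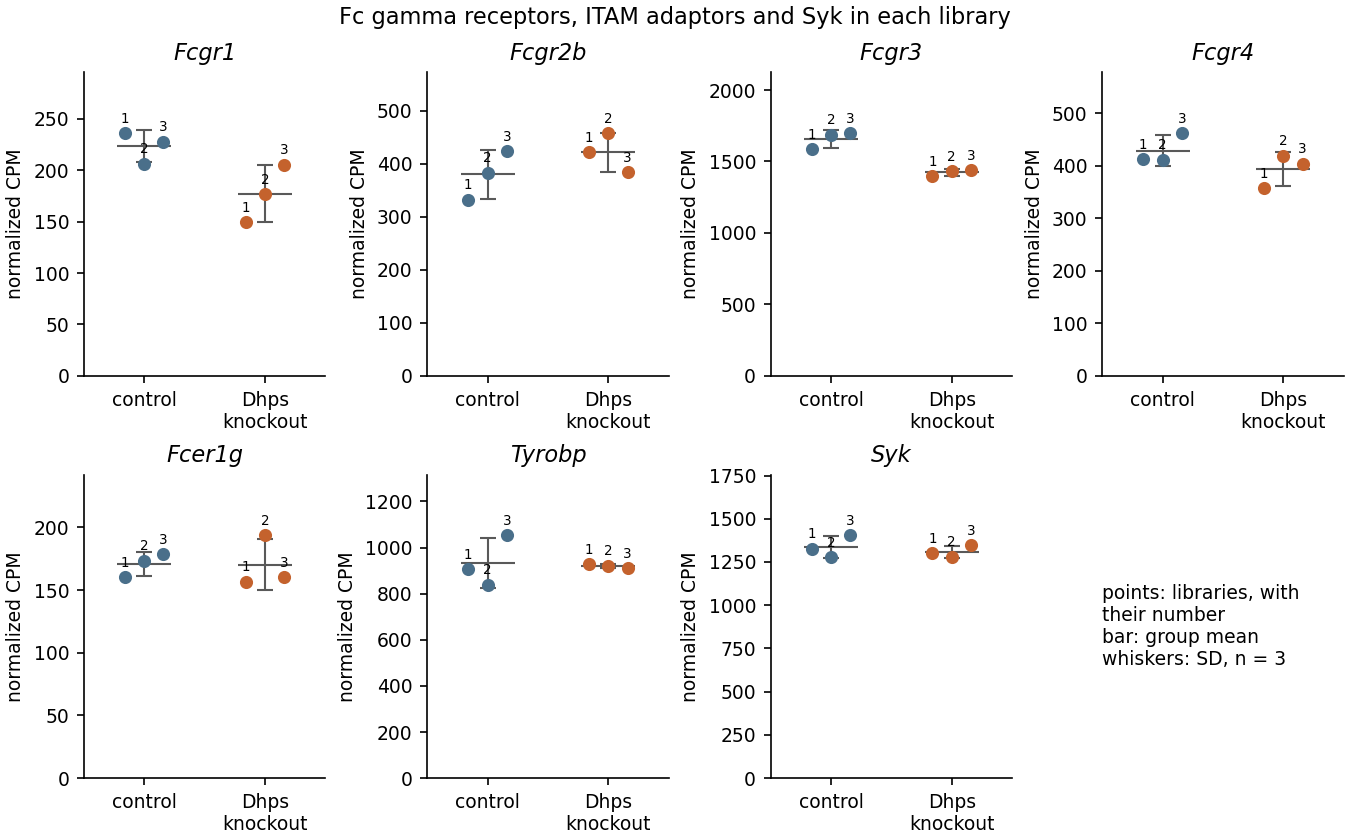
Normalized CPM of each gene in each library (points, labelled with the library number) with group mean and SD (n = 3 each), on axes that start at 0. For Fcgr1 and Fcgr3 all 3 knockout libraries lie below the controls, with a gap of 1.22 CPM for Fcgr1 and 146 CPM for Fcgr3, and for the other 5 genes the groups overlap.

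The signalling partners were close to level between the groups. Fcer1g, the common gamma chain, was at 160.2, 173 and 178 CPM in control libraries and at 157, 194 and 160.1 CPM in knockout libraries. The controls lay within the range of the knockout libraries, and the log2 fold change was -0.004 (SE 0.10, 95% interval -0.21 to 0.20, edgeR adjusted p = 0.999). Tyrobp was at 907, 839 and 1054 CPM in control libraries and at 929, 922 and 910.1 CPM in knockout libraries. All 3 knockout libraries lay within the range of the controls (log2 fold change -0.02, 95% interval -0.22 to 0.18, edgeR adjusted p = 0.992). Syk was at 1326, 1278.7 and 1405 CPM in control libraries and at 1302, 1279.6 and 1346 CPM in knockout libraries, again within the range of the controls. Its log2 fold change was -0.03 (SE 0.08, 95% interval -0.21 to 0.15, edgeR adjusted p = 0.987). These intervals leave room for folds between 0.864 and 1.15 for Fcer1g, between 0.861 and 1.13 for Tyrobp and between 0.867 and 1.11 for Syk.

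**Figure D3:**
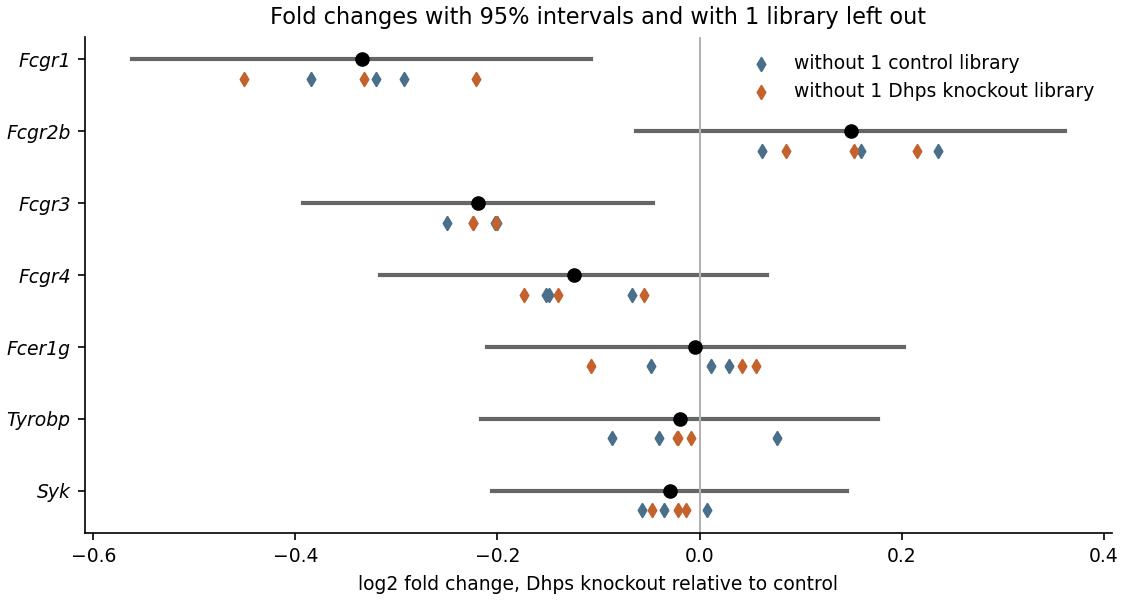
Log2 fold change of knockout relative to control (black points) with its 95% interval (grey lines) for the 7 genes, and the values with 1 library left out (diamonds). The intervals of Fcgr1 (-0.56 to -0.11) and Fcgr3 (-0.39 to -0.05) lie below 0 before adjustment over all genes, and the other 5 intervals include 0.

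The balance of receptors was compared within each library, where scaling between libraries cancels. The summed per-length level of Fcgr1, Fcgr3 and Fcgr4 was 7.41, 6.68 and 6.25 times that of Fcgr2b in control libraries 1, 2 and 3. In knockout libraries 1, 2 and 3 it was 5.04, 4.94 and 5.90 times. Every knockout library thus had a lower ratio of activating to inhibitory receptor transcripts than every control library. The difference in log2 ratio was -0.36, a fold of 0.780, beside SDs of 0.12 in control and 0.14 in knockout libraries (n = 3 each), with a two-sided exact permutation p = 0.1, the smallest that 3 against 3 libraries allow (0.15 adjusted over the 3 ratios compared). With any 1 library left out, the difference lay between -0.44 and -0.29. The groups do not overlap, but no exact test of this design can pass a threshold of 0.05. Fcgr3 is most of the upper term and Fcgr2b the whole lower term, and the split of their shared reads is uncertain. A read given to the wrong gene of this pair moves both terms in opposite directions, and its part in the ratio was not tested.

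The shares of the 4 receptors in their summed per-length level show how each gene enters that ratio. Fcgr2b made up 11.9%, 13.03% and 13.8% in control libraries and 16.5%, 16.8% and 14.5% in knockout libraries. Fcgr3 made up 64.8%, 65.5% and 63.2% in control libraries and 62.6%, 60.2% and 62.1% in knockout libraries. For both genes the shares of the 2 groups were apart, but narrowly, at 13.8% against 14.5% for Fcgr2b and 63.2% against 62.6% for Fcgr3. Shares of a whole are bound to each other, and the CPM of Fcgr2b itself overlapped between the groups. By CPM, a different measure, 11.2% of all genes had the groups apart in either direction. The uncertain split of reads between Fcgr2b and Fcgr3 enters these shares too. Fcgr4 had a mean share of 18.0% in control and 18.4% in knockout libraries, and Fcgr1 of 4.55% and 4.001%, each with overlapping groups.

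Fcer1g was also set against the activating receptors that need it. The per-length level of Fcer1g was 0.153, 0.159 and 0.158 times their sum in control libraries and 0.173, 0.201 and 0.166 times in knockout libraries. Every knockout library lay above every control library, with a difference in log2 ratio of 0.20 (two-sided exact permutation p = 0.1, adjusted 0.15). The SD of the log2 ratio was 0.03 in control and 0.15 in knockout libraries. Knockout library 2 was the highest, and without it the difference was 0.11. The sum of activating receptors is also the upper term of the ratio to Fcgr2b, so this is not a separate result. Fcer1g itself overlapped between the groups. The ratio of Tyrobp to Fcer1g was 6.58, 5.63 and 6.86 in control libraries and 6.89, 5.53 and 6.61 in knockout libraries, so that the adaptors kept overlapping ratios (difference in log2 ratio -0.004, exact permutation p = 1.0).

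**Figure D4:**
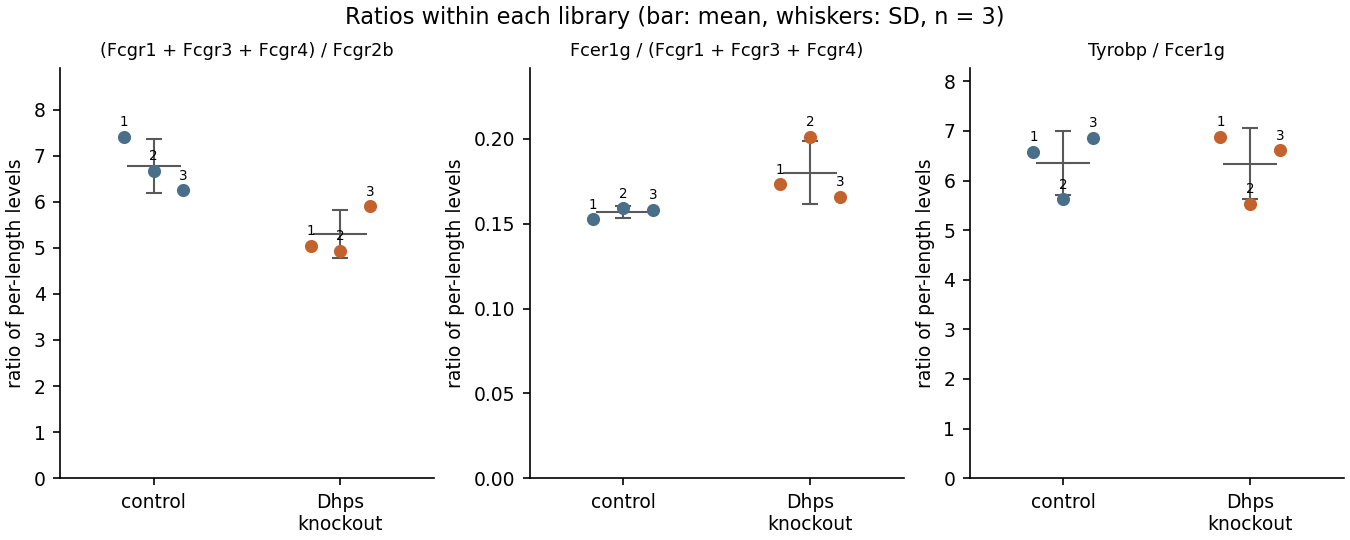
Ratios of per-length levels within each library (points, labelled with the library number) with group mean and SD (n = 3 each), on axes that start at 0. Activating over inhibitory receptors ran from 6.25 to 7.41 in control and from 4.94 to 5.90 in knockout libraries, Fcer1g over activating receptors was higher in every knockout library, and Tyrobp over Fcer1g overlapped.

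Other genes of the pathway were taken from 5 lists, and none of their measured genes passed the test in either direction by edgeR, DESeq2 or limma-voom. The median log2 fold change of all genes was -0.004. Of 15 other Fc receptors and antibody-binding proteins 5 were measured (median -0.14), with Trim21, the cytosolic antibody receptor (-0.14, edgeR adjusted p = 0.869), Fcgrt, the neonatal receptor that recycles IgG (-0.14, adjusted p = 0.903), and Fcrlb (-0.22, adjusted p = 0.939) first by p. At an unadjusted p under 0.05 there were 0, beside 6.48% of all genes in either direction. The high-affinity IgE receptor chains Fcer1a and Ms4a2, the partners of Fcer1g in mast cells and basophils, had no row.

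Of 32 receptors that signal through Fcer1g, Tyrobp or a related single-tyrosine motif 23 were measured, with a median of 0.01. Those with the smallest p were faint. Sirpb1a was at 0.514 to 0.870 CPM in control and 1.16 to 1.72 CPM in knockout libraries, a log2 difference of 1.12 with an SE of 0.41 (edgeR adjusted p = 0.616). Each gene with a row exceeded 1 CPM in at least 3 libraries, so Sirpb1a had a row through the knockout libraries only. Trem3 (0.96, adjusted p = 0.737) and Trem1, an amplifier of inflammation on neutrophils and monocytes (0.62, adjusted p = 0.837), were at no more than 3.19 CPM in any library. At an unadjusted p under 0.05 there were 2 higher and 0 lower, beside 3.84% higher and 2.64% lower of all genes.

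Of 44 Src family kinases and proteins beside or below Syk 42 were measured (median -0.02). With 2 higher and 0 lower at an unadjusted p under 0.05, the shares of all genes were 3.84% higher and 2.64% lower. Wipf1, which binds the actin regulator WASP, was at 28.4, 35.0 and 33.0 CPM in control libraries and at 46.4, 40.9 and 35.9 CPM in knockout libraries, a log2 difference of 0.35 with an SE of 0.12 (edgeR adjusted p = 0.545). The groups were apart, though control library 2 came close to knockout library 3. Of all genes, 5.73% had every knockout library above every control library, and Wipf1 was named for its small p, which favours groups that are apart. Pik3cb, a catalytic subunit of phosphoinositide 3-kinase, differed by 0.22 (adjusted p = 0.677) and Plcg1, a phospholipase C, by -0.29 (adjusted p = 0.825) on the log2 scale.

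Of 38 inhibitory receptors, phosphatases and other negative regulators 35 were measured (median 0.01). There were 4 higher and 2 lower at an unadjusted p under 0.05, beside 3.84% higher and 2.64% lower of all genes. Siglec1, a sialic acid receptor of macrophages, was at 204, 127 and 145 CPM in control libraries and at 106, 123 and 124 CPM in knockout libraries, a log2 difference of -0.43 with an SE of 0.14 (edgeR adjusted p = 0.495). All knockout libraries lay below all controls, with control library 2 at 127 CPM close to knockout library 3 at 124 CPM. Control library 1 stood above the other 5 libraries, and without it the log2 fold change was -0.21. Cblb, a ubiquitin ligase that restrains Syk and its partners (0.28, adjusted p = 0.547), and Cd200r1, an inhibitory receptor (0.27, adjusted p = 0.611), had knockout libraries above all controls. Of all genes, 5.73% had every knockout library above every control library and 5.45% had every one below. Siglec1, Cblb and Cd200r1 were named for the smallest p of their list, which favours groups that are apart. Of 6 genes of the phagocyte NADPH oxidase, which makes superoxide at the phagosome, 5 were measured (median -0.04, 0 at an unadjusted p under 0.05). Cyba was at -0.11 (adjusted p = 0.917), Ncf4 at -0.07 (adjusted p = 0.946) and Cybb at 0.07 (adjusted p = 0.956).

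**Figure D5:**
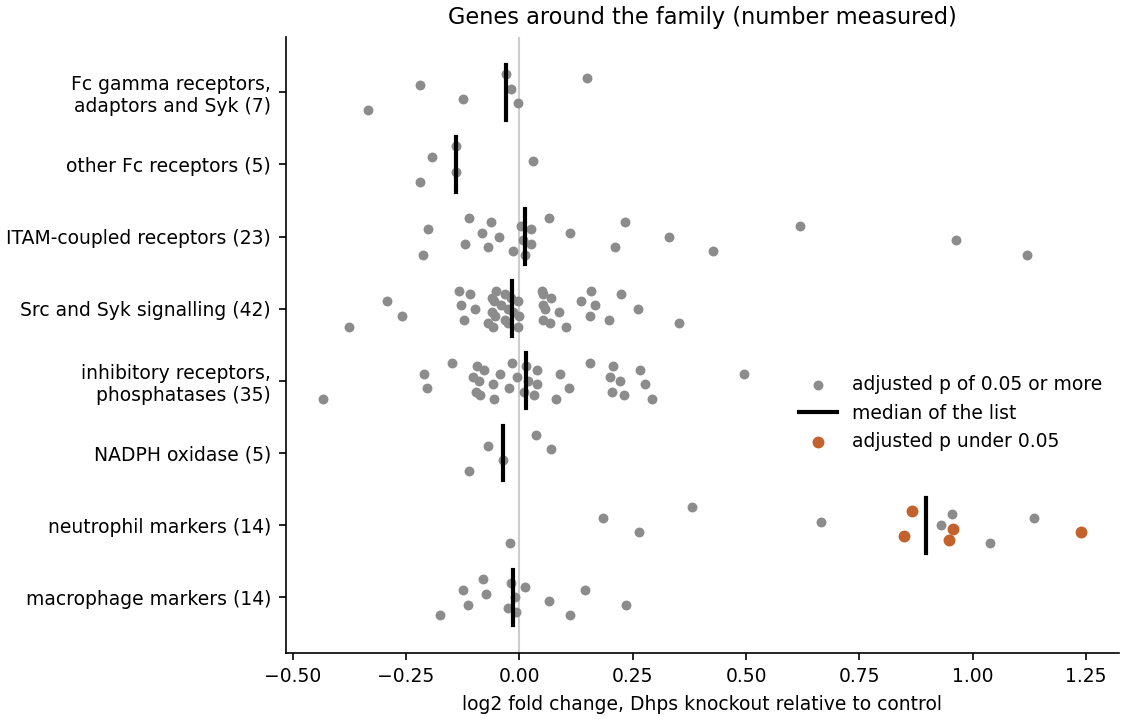
Log2 fold change of every measured gene (points) in the family, in the 5 lists around it and in the marker lists of neutrophils and macrophages, with the median of each list (black bars). Orange points passed the test at an adjusted p under 0.05. They occur in the neutrophil list, whose median is 0.90, and the other lists shown have medians between -0.14 and 0.01.

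The profile over the 6 libraries most like that of each member was sought among 3993 other genes whose average log2 CPM was 5 or more. Members and genes with a provisional name (Gm with a number, Rik or a leading digit) were left out. The measure was the root mean square distance of log2 CPM, each gene centred on its own mean. The distance was 0.05 for Fcgr1 and Frmd4b, 0.03 for Fcgr2b and Arfip1 and 0.03 for Fcgr3 and Abcb1b. It was 0.02 for Fcgr4 and Dock10, for Fcer1g and Kcnj2 and for Tyrobp and Lonp2, and 0.01 for Syk and Tmbim1. The median distance over all candidates was between 0.11 and 0.24 for the 7 members. The members' own root mean square around their means ran from 0.05 for Syk to 0.22 for Fcgr1. A gene that varies little lies near any other such gene, so distances of different members do not rank the likeness of profiles. These pairs describe the 6 libraries only.

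Promoter sequences of 6 of the 7 genes were available from RefSeq (GRCm38.p6), each at the start site of the deposited gene model. Those of the 4 receptors are shown for the 120 bases before the start site, with GAGGAA on either strand (TTCCTC as printed) in capitals. These letters, which contain the shorter GGAA, occur in many sites of PU.1, a transcription factor of the myeloid lineage. They are not the only form of such a site and were chosen after the sequences were seen.
Fcgr1 chr3:96293970-96294089, minus strand: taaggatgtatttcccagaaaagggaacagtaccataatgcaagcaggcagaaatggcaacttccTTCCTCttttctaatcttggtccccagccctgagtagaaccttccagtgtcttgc
Fcgr3 chr1:171059404-171059523, minus strand: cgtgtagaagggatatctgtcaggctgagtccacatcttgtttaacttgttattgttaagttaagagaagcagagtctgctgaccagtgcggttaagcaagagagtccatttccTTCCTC
Fcgr4 chr1:171018806-171018925, plus strand: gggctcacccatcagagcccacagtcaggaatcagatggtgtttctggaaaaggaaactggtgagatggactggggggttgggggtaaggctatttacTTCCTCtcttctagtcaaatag
Fcgr2b chr1:170976072-170976191, minus strand: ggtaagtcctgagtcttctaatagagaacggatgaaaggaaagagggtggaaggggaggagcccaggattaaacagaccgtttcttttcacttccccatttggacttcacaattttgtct
The letters begin 55 bases before the start site in Fcgr1, 22 in Fcgr4 and 6 in Fcgr3. In the 250 bases before the start, 3 of the 6 promoters held them, those of Fcgr2b, Fcer1g and Syk being without. That absence is of GAGGAA only, as the printed stretch of Fcgr2b holds the shorter GGAA on both strands. Of the 27025 genes with a promoter entry, 25.9% held them in any of their entries. Each member was read at a single entry, so the measures differ. A match describes letters only, binding was not measured, and the letters are not set against the fold changes.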

How the data were processed

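RNA was measured in 3 control and 3 Dhps knockout libraries of bone marrow-derived macrophages and read on an Ion Proton, as the labels' protocols state. The authors deposited raw counts per gene, with summed exon lengths in bases as another kind of value. Tools and build in the submitters' processing notes are mm10, STAR 2.4.2a, Subread 1.5.0, featureCounts and edgeR, with neither role nor order. Strand use and annotation are not given in the sources used here. Each of the 10551 genes exceeded 1 CPM in at least 3 libraries, so the table looks filtered. Every per-sample column was used.

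Counts were scaled by TMM and compared by edgeR's quasi-likelihood F test (edgeR 4.0.16, R 4.3.3), genotype as the only term, two-sided, with Benjamini-Hochberg adjustment over all 10551 genes and a threshold of 0.05. No gene was removed by filterByExpr at its minimum count of 10. The SE is the log2 fold change divided by the square root of F. The biological coefficient of variation was 10.7%. Ratios of per-length levels were compared by exact permutation. Alternatives used DESeq2 1.42.0, limma 3.58.1, other size factors and filters, a replicate block and each library left out. The fit was first checked on simulated data.

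The members and lists were chosen with earlier results of these data known. Named genes are Dhps, the members, the 3 genes of each pathway list with the smallest p, the nearest profile of each member, and markers that passed or had no row. Marker lists of monocytes, mast cells and basophils, NK and T cells, platelets, dendritic cells and stromal cells were also read.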

Additional observations from a re-analysis of the deposited data

How the results depend on the processing

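None of the 7 genes and no gene of the 5 lists around them passed the threshold under any alternative run. The log2 fold changes of Fcgr1, Fcgr2b, Fcgr3 and Fcgr4 kept their sign in all alternatives. They ran from -0.45 to -0.22 for Fcgr1, 0.06 to 0.24 for Fcgr2b, -0.25 to -0.14 for Fcgr3 and -0.17 to -0.05 for Fcgr4. The -0.14 was the value with the counts of Fcgr2b and Fcgr3 summed. Values near 0 changed sign. Without size factors, Fcer1g was at 0.018 and Tyrobp at 0.0053. With 1 library left out, Fcer1g ranged from -0.11 to 0.056, Tyrobp from -0.087 to 0.076, Syk from -0.057 to 0.0075, the log2 ratio of Tyrobp to Fcer1g from -0.090 to 0.091 and Cyba from -0.18 to 0.028. The count of all genes called was 11, against 22 with DESeq2, 4 to 19 with 1 library left out (leaving out control library 1 gave 19, control library 2 gave 4, control library 3 gave 7), and 7 with Lyz2 left out of the counts, an alternative chosen after seeing the data, as was the sum of Fcgr2b and Fcgr3. With the replicate number as a block 35 genes were called, none of them in the family (Fcgr1 at -0.34, adjusted p = 0.169), and Dhps passed (adjusted p = 0.033). No label says that the numbers pair libraries. Deviations of same-numbered libraries had a Pearson r across genes of 0.14, 0.02 and 0.15, against -0.18 to 0.05 for different numbers. Libraries 1 and 3 of each group correlated best with their own number, and control library 2 (0.03 with knockout library 1) and knockout library 2 (0.05 with control library 3) did not. The cause of these changes was not tested. Counting error was at most 2.21% of any value of the family, but for Fcgr1 it exceeded the gap between the groups.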

Other observations

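Other marker lists held genes that were not in the account of the family. Over all genes, 3.84% were higher and 2.64% lower at an unadjusted p under 0.05, the shares to set beside the counts below. Of 10 measured monocyte markers, which mark cells that also carry Fcgr1, Fcgr4 and Tyrobp, none passed the test (median log2 fold change 0.41), and 5 were higher and 0 lower at an unadjusted p under 0.05. Their summed level was 241 to 289 CPM in control and 244 to 346 CPM in knockout libraries. For mast cells and basophils, 5 of 13 listed genes had a row, at a summed 14.3 to 18.5 CPM in control and 18.8 to 27.2 CPM in knockout libraries, and none passed (2 higher and 0 lower at an unadjusted p under 0.05). Those 2 were under 1 CPM in every control library, so they had a row through the knockout libraries only. Of 10 NK and T cell markers 0 were measured. Of 10 dendritic cell markers 3 were measured and none passed (median 0.21), and of 10 platelet markers 8 were measured and none passed (median 0.64, with 4 higher and 1 lower at an unadjusted p under 0.05). The summed platelet level was 1425 to 1718 CPM in control and 1202 to 1334 CPM in knockout libraries. Most of that sum was Pf4, singled out after its values were seen, at 1403 to 1697 CPM in control and 1166 to 1299 CPM in knockout libraries (log2 fold change -0.29, edgeR adjusted p = 0.521). Of 10 stromal markers 5 were measured and 2 rose, Col1a2 (log2 fold change 2.82, edgeR adjusted p = 0.046) and Sparc (2.34, adjusted p = 0.046). Col1a2 was at 0.143, 0.514 and 0.522 CPM in control libraries and at 2.41, 1.39 and 4.48 CPM in knockout libraries. Sparc was at 0.643, 0.321 and 0.783 CPM in control libraries and at 1.65, 3.10 and 3.92 CPM in knockout libraries. Each gene with a row exceeded 1 CPM in at least 3 libraries, so Col1a2 and Sparc had a row through the knockout libraries only. The part of any of these cells in the receptor values was not tested.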
